A study of Homo sapiens with 20 samples.

Results

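Glycolysis, lactate formation and the pentose phosphate pathway were followed through 37 genes in U937 derived leukemia cells in which EVI1 can be switched on. The genes were listed by what their products do: sugar transporters, the enzymes that turn glucose into pyruvate and lactate, the kinases that hold back pyruvate dehydrogenase, and the enzymes of the pentose phosphate pathway. Of the 37 genes, 35 had at least 1 probe set (the group of short oligonucleotides that reports on a transcript) annotated with their symbol alone, 84 probe sets in all. On the whole array 19775 genes, with 41097 of the 54675 probe sets, were counted in the same way. SLC16A1 and SLC16A3, the transporters that carry lactate across the plasma membrane, are not analysed here. All 35 measured genes passed the intensity filter, and they form part of the 17860 genes on which the tests were run.

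The data are 20 Affymetrix HG-U133 Plus 2.0 arrays of total RNA. The EVI1 lines, E10 and E14, are independent U937T_EVI1-HA clones that carry a tagged human EVI1 cDNA, which tetracycline (tet) keeps silent. RNA was taken at 6, 12, 24 or 48 h without tet and with tet. The control lines, P2, a single clone with the empty vector (U937T_vec), and parental U937T, were sampled only at 48 h without tet and with tet. All cultures had been kept in tet and puromycin and were washed before they were returned to medium without or with tet, and E10, E14 and P2 were also grown in hygromycin. Each line, time and condition was hybridized once, so that every group holds 2 lines. Stable differences between the 2 lines of a kind were taken out in a single fit. The p-values and standard errors rest on how the difference between the 2 lines varied from group to group, pooled and moderated across genes. They do not measure the spread between the 2 lines of a given comparison alone.

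Intensities are given on the log2 scale, on which the highest value of the series is 14.49 and the lowest 1.84, and levels are compared only within a gene. A change is the log2 intensity without tet minus that with tet, given with its standard error (SE). It was tested in limma, and a gene was called at a Benjamini-Hochberg adjusted p under 0.05 over all 17860 genes. The EVI1-specific response is the change in E10 and E14 at 48 h minus the change in P2 and U937T at 48 h. The brightest of 5 probe sets for EVI1 read 8.52 to 10.51 in E10 and E14 without tet and 7.06 to 7.34 in E10 and E14 with tet. In P2 and U937T it read 5.91 and 6.53 without tet and 6.90 and 6.48 with tet. The other 4 read 2.38 to 3.68 over all arrays. Of the defining markers, the myeloid genes SPI1, CEBPA, PTPRC, ELANE, LYZ and CD4 had medians between 9.54 and 12.0, whereas MPO, FCGR1A and CD14 lay between 3.52 and 4.97. Epithelial EPCAM and KRT19 and the B cell gene MS4A1 had medians of 2.95 to 4.43, and CD79A, NKG7 and EPOR stood higher, at 7.48 to 8.10. The mean over the 13 measured markers of lymphoid, erythroid, megakaryocytic, epithelial and fibroblast cells was 5.89 to 6.02 at 48 h without tet and 5.79 to 5.91 at 48 h with tet. RNA integrity, read as the excess of the 3′ over the 5′ control probe sets of actin and GAPDH, differed between arrays, with an excess of 0.19 to 1.06 on 18 arrays and of 1.40 and 1.52 in E14 at 24 h without tet and with tet. In bulk RNA, fewer cells of a kind and less RNA per cell cannot be told apart.

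Glycolysis splits glucose into pyruvate in the cytosol. Hexokinases trap the sugar as glucose 6-phosphate, glucose-6-phosphate isomerase interconverts it with fructose 6-phosphate, and phosphofructokinase then commits the sugar to glycolysis. Glucose 6-phosphate can instead enter the pentose phosphate pathway, which yields NADPH and ribose for nucleotides. Leukemic and activated myeloid cells are known for a high glucose use, and phagocytes need NADPH for their oxidative burst.

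At 6 h and at 12 h after tet withdrawal, none of the 35 genes was called in E10 and E14. The background was 0% of all genes higher and 0% lower at 6 h, and 0.0168% higher and 0.0112% lower at 12 h. At an unadjusted p under 0.05, 2 of the 35 genes passed at 6 h and 1 at 12 h. Of all 17860 genes, 276 passed as higher and 310 as lower at 6 h, and 456 and 678 at 12 h. At 24 h, 5 genes were higher and 5 lower without tet, 14.3% in each direction, against 7.97% of all genes higher and 9.16% lower. Of these 10 genes, HK2, HK3 and PFKM kept their call both without E10 and without E14, and SLC2A1, SLC2A3, SLC2A6, GPI, PDK1, PDK3 and RPIA lost it in both fits, with adjusted p between 0.055 and 0.54. At 48 h, 7 were higher and 7 lower, which is 20% in each direction, against 16.0% of all genes higher and 14.7% lower. The median change of the 35 genes at 48 h was 0.03, against -0.04 over all genes. In P2 and U937T at 48 h, 3 genes were higher and 3 lower, 8.57% in each direction, against 5.41% of all genes higher and 5.30% lower. In the EVI1-specific response, HK3 was higher and HK2, GPI and RPIA were lower, that is 2.86% and 8.57% of the 35 genes, against 2.43% of all genes higher and 3.03% lower. With so few genes, 1 or 2 calls move such a share by several percent. The median size of the EVI1-specific response, without regard to sign, was 0.14 over the 35 genes and 0.18 over all genes.

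**Figure D1:**
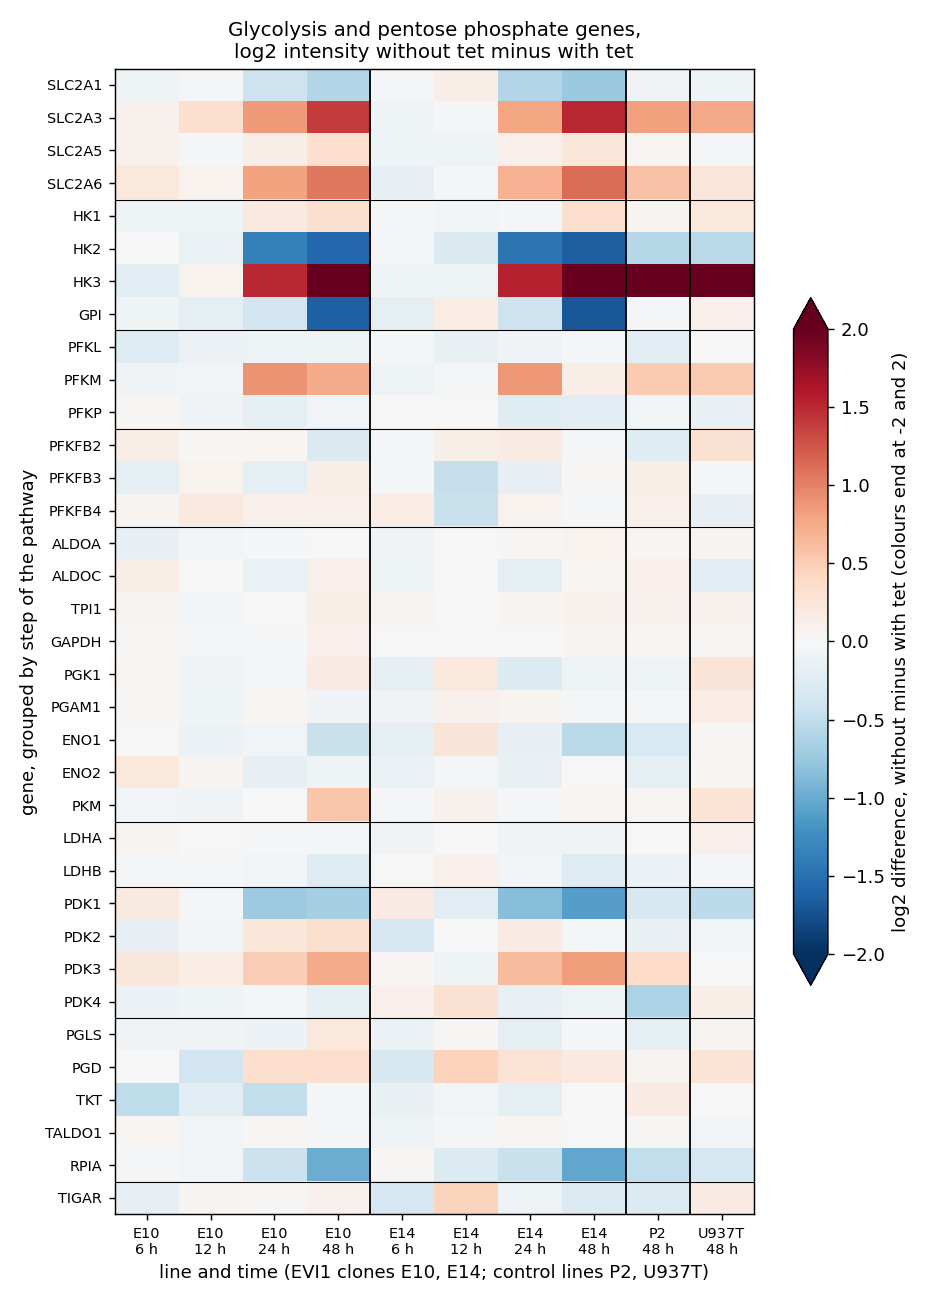
Change of each of the 35 measured genes (rows, grouped by step of the pathway) for each line and time (columns), as log2 intensity without tet minus that with tet, with 1 array per condition. HK3, SLC2A3 and SLC2A6 turn red and HK2, GPI, RPIA and PDK1 turn blue in E10 and E14 at 24 and 48 h, GPI stays near 0 in P2 and U937T, and the rows of ALDOA, GAPDH and LDHA stay pale throughout.

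The hexokinases moved in opposite directions. HK2, the inducible hexokinase of proliferating and muscle cells, read 8.47 in E10 and 8.51 in E14 at 48 h without tet, against 10.04 and 10.15 with tet. In P2 and U937T it read 9.25 and 9.42 without tet, against 9.81 and 9.95 with tet. HK2 was thus lower without tet in all 4 lines, and the 4 cultures without tet did not overlap with those with tet, the EVI1 clones lying lowest. The change was -1.61 ± 0.09 (SE, n = 2 clones) in E10 and E14, a 3.05-fold lower intensity (limma, adjusted p = 1.4e-08), and -0.55 ± 0.09 (n = 2 lines) in P2 and U937T (adjusted p = 0.0015, and 0.070 in the fits without E10 or without E14). The EVI1-specific response was -1.06 ± 0.13 (95% confidence interval -1.33 to -0.79, adjusted p = 0.00024). It kept its size in fits without E10 (-1.10) or without E14 (-1.02), which leave 1 clone and gave adjusted p = 0.11 and 0.15 in limma. All 3 probe sets of HK2 were lower in E10 and E14, with changes of -1.92 to -1.61, and all 3 had a negative EVI1-specific response, of -1.13 to -1.03.

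HK2 was first called lower at 24 h. At 6 h the gene read 9.91 in E10 and 9.89 in E14 without tet, against 9.91 and 9.92 with tet. At 12 h it read 10.13 and 10.14 without tet, against 10.27 and 10.43 with tet. At 24 h it read 9.06 and 9.18 without tet, against 10.41 and 10.63 with tet, a change of -1.40 ± 0.09 (limma, adjusted p = 5.0e-07). With tet, HK2 was highest at 24 h in both clones. The response at 48 h differed from that at 24 h by -0.21 ± 0.13 (adjusted p = 0.44).

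HK3, the hexokinase of granulocytes and monocytes, rose more than any other of the 35 genes. It read 9.48 in E10 and 9.68 in E14 at 48 h without tet, against 6.23 and 6.11 with tet. In P2 and U937T it read 8.41 and 8.36 without tet, against 6.13 and 6.11 with tet. All cultures without tet at 48 h lay far above all cultures with tet, and the EVI1 clones lay above the control lines. The change was 3.41 ± 0.10 in E10 and E14, a 10.6-fold higher intensity (limma, adjusted p = 7.4e-11), and 2.27 ± 0.10 in P2 and U937T, 4.82-fold (adjusted p = 3.0e-08). The EVI1-specific response of 1.14 ± 0.15 (95% confidence interval 0.82 to 1.46, adjusted p = 0.00049) is the amount by which the clones exceeded the control lines. It was 1.30 without E10 and 0.98 without E14 (adjusted p = 0.052 and 0.18 in limma with 1 clone left). ITGAM, which encodes CD11b, a marker of myeloid maturation, moved with HK3. It read 10.2 in E10 and 10.5 in E14 at 48 h without tet, against 5.14 and 5.05 with tet, and 9.37 in P2 and 9.58 in U937T without tet, against 5.54 and 5.58 with tet. ITGAM is only 1 of the 11 measured myeloid markers, and the others did not all vary as widely. FCGR1A stayed between 3.13 and 3.78 over all arrays and CD14 had a median of 4.11, whereas CSF1R ran from 6.67 to 9.10. Whether these 3 markers changed with tet was not tested. ITGAM alone therefore does not show maturation, and the part of maturation in the response of HK3 was not tested.

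HK3 did not respond at 6 and 12 h by the test, and its response grew over the last day. At 6 h it read 5.98 in E10 and 6.07 in E14 without tet, against 6.20 and 6.15 with tet. At 12 h it read 6.15 and 6.06 without tet, against 6.08 and 6.14 with tet. By 24 h it had reached 7.59 and 7.81 without tet, against 6.08 and 6.27 with tet, a change of 1.52 ± 0.10 (limma, adjusted p = 9.9e-07). The response at 48 h exceeded that at 24 h by 1.88 ± 0.15 (adjusted p = 2.4e-05), against a background for this comparison of 2.07% of all genes higher and 1.63% lower. That excess was 1.75 without E14 (adjusted p = 0.071). With tet the gene stayed between 6.08 and 6.27 in E10 and E14 at all times. HK1, the widely expressed hexokinase, rose by 0.34 ± 0.09 in E10 and E14 at 48 h (adjusted p = 0.0098, and 0.38 without E10 and 0.41 without E14) and differed by 0.14 in P2 and U937T (adjusted p = 0.42). Its EVI1-specific response of 0.20 was not called (95% confidence interval -0.07 to 0.48).

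GPI, glucose-6-phosphate isomerase, showed the largest EVI1-specific response among the 35 genes and the control lines did not share its fall. It read 9.86 in E10 and 9.85 in E14 at 48 h without tet, against 11.49 and 11.55 with tet. The control lines P2 and U937T gave 11.51 and 11.60 without tet, against 11.54 and 11.49 with tet. The 2 EVI1 cultures without tet at 48 h lay below all other 18 arrays, and the control lines overlapped between conditions. The change was -1.66 ± 0.13 in E10 and E14, a 3.17-fold lower intensity (limma, adjusted p = 2.2e-07), and 0.04 ± 0.13 in P2 and U937T (95% confidence interval -0.23 to 0.31, adjusted p = 0.89). The EVI1-specific response was -1.71 ± 0.18 (95% confidence interval -2.09 to -1.33, adjusted p = 8.9e-05), and it stayed past the threshold in every fit that was run, those without 1 line included.

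Most of the fall of GPI took place after 24 h. At 6 h it read 11.70 in E10 and 11.50 in E14 without tet, against 11.79 and 11.69 with tet. At 12 h it read 11.33 and 11.46 without tet, against 11.51 and 11.32 with tet. At 24 h it read 11.15 and 10.74 without tet, against 11.52 and 11.16 with tet, and E14 was lower than E10 in both conditions. The change at 24 h was -0.40 ± 0.13 (limma, adjusted p = 0.042), and without the E14 arrays at 12 and 24 h, those with the largest 3′ excess at 24 h, it was -0.38 (adjusted p = 0.21). From 24 to 48 h the response changed by -1.27 ± 0.18 (adjusted p = 0.0014, and 0.25 without E10 and 0.24 without E14). The array holds 1 probe set for GPI, so that no second probe set could be compared.

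**Figure D2:**
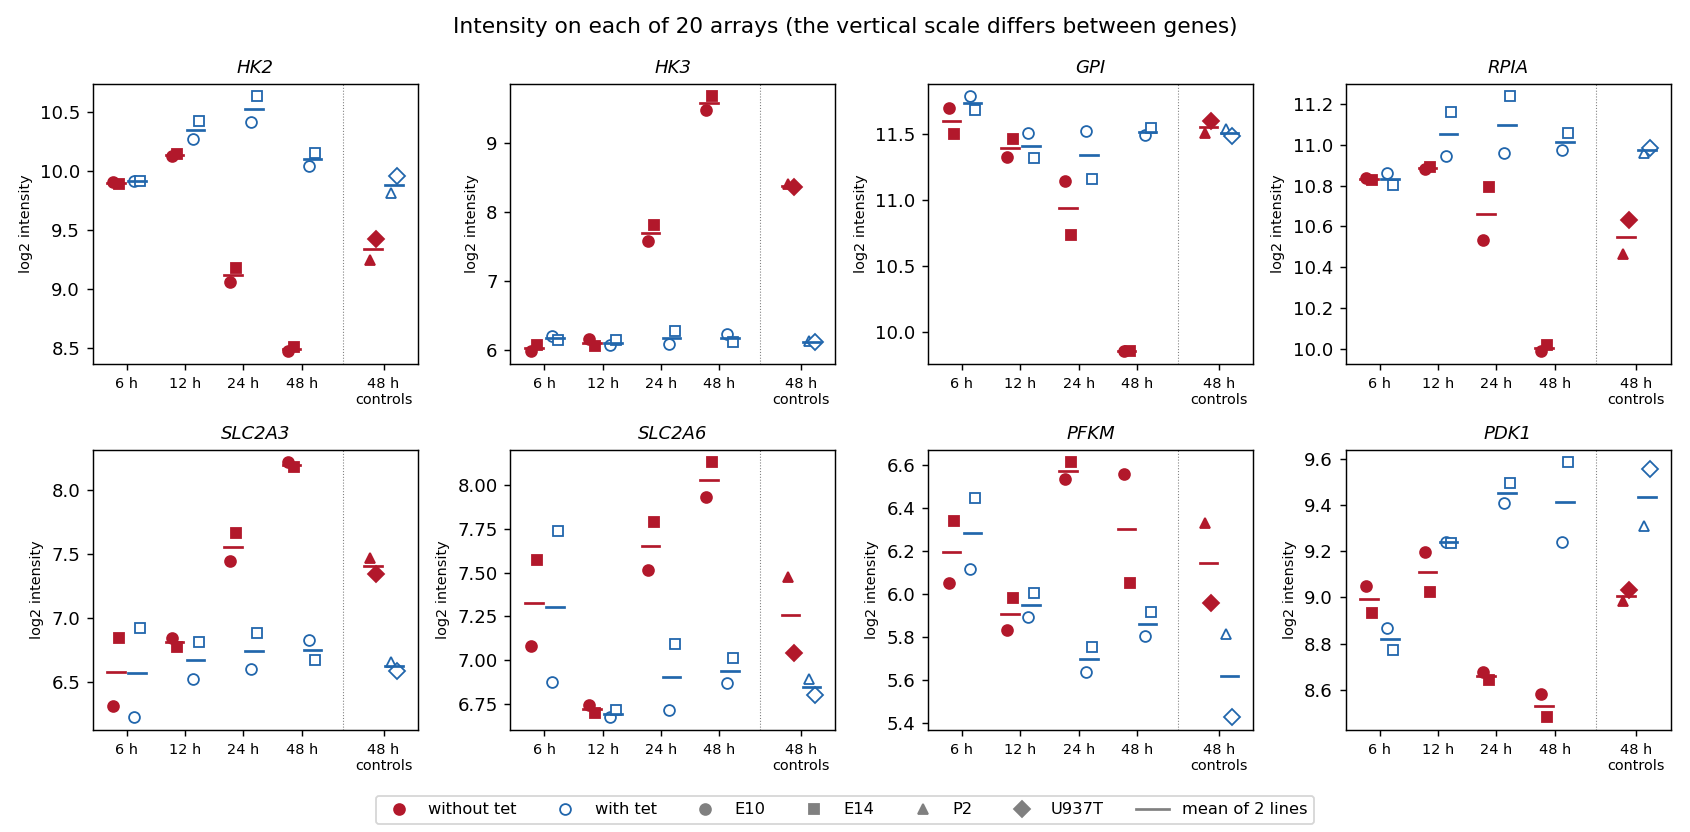
Log2 intensity on each of the 20 arrays for 8 genes, with filled red symbols for cultures without tet, open blue symbols for cultures with tet, and bars for the mean of the 2 lines. HK3 climbs to 9.48 and 9.68 in E10 and E14 at 48 h, GPI drops to 9.86 and 9.85 in these cultures only, and HK2 and RPIA are lower without tet in all lines at 48 h.

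The sequences before the starts of these genes are shown because MYC and the hypoxia-inducible factors, textbook regulators of glycolytic genes, bind short motifs that can be read in them. They come from RefSeq on build GRCh38.p14, run from 250 bases before the start to the base before it, and are given on the coding strand. Where RefSeq lists several starts, the one with most matches is given. Capitals mark CACGTG, the E-box bound by MYC and its partners, and ACGTG or GCGTG, the core of the hypoxia response element, on either strand. Each CACGTG holds the core ACGTG on both strands. HK2 and LDHA are set beside HK3 and GPI since they hold 2 E-boxes each, and HK2 was called at 48 h in E10 and E14 while LDHA, which stands near the top of the scale, was not.
HK2, chr2:74834920-74835169, plus strand: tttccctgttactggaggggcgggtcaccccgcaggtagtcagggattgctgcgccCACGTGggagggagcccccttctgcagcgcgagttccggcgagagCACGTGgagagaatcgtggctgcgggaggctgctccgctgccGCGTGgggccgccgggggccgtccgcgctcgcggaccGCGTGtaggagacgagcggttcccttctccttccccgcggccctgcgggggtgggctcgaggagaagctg
HK3, chr5:176899347-176899596, minus strand: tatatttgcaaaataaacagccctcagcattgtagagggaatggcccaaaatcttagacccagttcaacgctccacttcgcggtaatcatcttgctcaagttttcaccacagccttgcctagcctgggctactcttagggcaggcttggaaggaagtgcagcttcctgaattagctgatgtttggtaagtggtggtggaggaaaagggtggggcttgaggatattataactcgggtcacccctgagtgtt
GPI, chr19:34364742-34364991, plus strand: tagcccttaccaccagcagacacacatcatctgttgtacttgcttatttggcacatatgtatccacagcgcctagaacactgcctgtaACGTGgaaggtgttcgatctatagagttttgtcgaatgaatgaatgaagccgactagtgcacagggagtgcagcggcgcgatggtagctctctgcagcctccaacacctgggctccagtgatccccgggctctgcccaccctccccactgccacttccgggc
LDHA, chr11:18394313-18394562, plus strand: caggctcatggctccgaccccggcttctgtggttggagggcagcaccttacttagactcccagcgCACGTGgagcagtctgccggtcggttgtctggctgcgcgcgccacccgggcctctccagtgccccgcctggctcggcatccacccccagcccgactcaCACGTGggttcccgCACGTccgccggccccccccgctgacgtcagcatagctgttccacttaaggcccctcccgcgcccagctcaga

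The window of HK2 held 2 E-boxes and that of LDHA 2, whereas those of HK3 and GPI held none, and HK3 held neither core of the hypoxia response element. HK2 and LDHA have 2 starts each, and the window of the other start held no E-box in either gene. HK3 and GPI have 1 start each. Over all starts, 62 windows for 34 of the 37 genes were found in RefSeq, with no entry for SLC2A3, SLC16A1 and PFKFB2. CACGTG was found for 7 of the 34 genes, namely ALDOA, ALDOC, GAPDH, HK2, LDHA, PDK2 and PFKFB3, which is 20.6% of these genes, against 7.73% of 27305 genes, or 11.3% of their windows, against 6.34% of 35116 windows of all genes. ACGTG or GCGTG was found for 24 of the 34 genes (70.6%, against 47.4% of the same 27305 genes), or in 51.6% of their windows, against 43.2% of all windows. A share by gene rises with the number of starts, and there were 62 windows for 34 genes, against 35116 windows for 27305 genes. GACAAGATA and GATAAGATA, letters bound by the first zinc finger domain of EVI1, and GAAGATGAG, bound by the second, were searched for on both strands. None was found in the 62 windows, and they are rare in general, at 0.09%, 0.07% and 0.26% of all windows. The paper reports that EVI1 bound the proximal promoter of MS4A3, where its authors found none of the earlier defined EVI1 sites. Whether EVI1 binds the 62 windows was not tested.

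The sugar transporters also changed in part in opposite directions. SLC2A3, the high-affinity glucose transporter GLUT3, read 8.22 in E10 and 8.18 in E14 at 48 h without tet, against 6.82 and 6.67 with tet. For P2 and U937T the values were 7.47 and 7.34 without tet, against 6.65 and 6.59 with tet. The cultures without tet were higher in all 4 lines, without overlap, and highest in the EVI1 clones. The change was 1.46 ± 0.17 in E10 and E14, 2.74-fold (limma, adjusted p = 1.3e-05), and 0.79 ± 0.17 in P2 and U937T (adjusted p = 0.009, and 0.12 without P2 and 0.080 without U937T). The EVI1-specific response of 0.67 ± 0.24 was not called (95% confidence interval 0.15 to 1.19, adjusted p = 0.14). It passed where the mean of all probe sets of a gene was used (0.69, adjusted p = 0.014). At 24 h the gene read 7.44 and 7.67 in E10 and E14 without tet, against 6.60 and 6.88 with tet, a change of 0.82 (adjusted p = 0.0039). At 6 and 12 h it lay between 6.31 and 6.84 without tet and between 6.22 and 6.92 with tet, and the conditions overlapped. Probe sets shared with its close relative SLC2A14 were left out, and whether the remaining ones also detect SLC2A14 was not tested.

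SLC2A6, a transporter of the GLUT family found in leukocytes, read 7.93 in E10 and 8.13 in E14 at 48 h without tet, against 6.87 and 7.01 with tet. The control lines P2 and U937T gave 7.48 and 7.04 without tet, against 6.90 and 6.80 with tet. Each line was higher without tet, and P2 more than U937T. The change was 1.09 ± 0.17 in E10 and E14 (limma, adjusted p = 0.00018) and 0.41 ± 0.17 in P2 and U937T (adjusted p = 0.16). The EVI1-specific response of 0.68 ± 0.24 was not called (95% confidence interval 0.16 to 1.19, adjusted p = 0.14). At 24 h it read 7.52 and 7.79 in E10 and E14 without tet, against 6.72 and 7.09 with tet (adjusted p = 0.007). At 6 h the 2 clones differed more from each other than the conditions did, with 7.08 and 7.57 without tet and 6.88 and 7.73 with tet. At 12 h the values were 6.75 and 6.70 without tet and 6.68 and 6.72 with tet.

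SLC2A1, the basal glucose transporter GLUT1, changed by -0.66 ± 0.13 in E10 and E14 at 48 h (limma, adjusted p = 0.0011, and 0.10 without E14). It differed by -0.08 in P2 and U937T (95% confidence interval -0.36 to 0.20, adjusted p = 0.79). The EVI1-specific response of -0.59 ± 0.18 missed the threshold (adjusted p = 0.087) and passed it with the 3′ excess as a model term (-0.63, adjusted p = 0.041). SLC2A5, the fructose transporter GLUT5, rose by 0.29 in E10 and E14 at 48 h (adjusted p = 0.024, and 0.59 without E10 and 0.38 without E14). Its probe sets disagreed, with changes of -0.13 to 0.69 over 4 probe sets, and the probe set with the largest spread gave -0.13 (adjusted p = 0.83).

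At the phosphofructokinase step, the muscle subunit PFKM changed and the liver and platelet subunits PFKL and PFKP did not pass the test. PFKM read 6.56 in E10 and 6.05 in E14 at 48 h without tet, against 5.81 and 5.92 with tet. For P2 and U937T the values were 6.33 and 5.96 without tet, against 5.81 and 5.43 with tet. Within each line the culture without tet was higher, but E14 differed by only 0.13, and U937T without tet lay close to E14 with tet. The change was 0.44 ± 0.15 in E10 and E14 (limma, adjusted p = 0.039, and 0.82 without E10) and 0.52 ± 0.15 in P2 and U937T (adjusted p = 0.041, and 0.21 without P2 and 0.20 without U937T). The EVI1-specific response was -0.08 (95% confidence interval -0.54 to 0.38). At 24 h PFKM read 6.53 and 6.61 in E10 and E14 without tet, against 5.64 and 5.75 with tet, a change of 0.88 (adjusted p = 0.00098). At 6 h it read 6.05 and 6.34 without tet and 6.12 and 6.45 with tet, and at 12 h 5.83 and 5.98 without tet and 5.89 and 6.01 with tet. PFKL and PFKP had EVI1-specific responses of 0.03 and -0.04.

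PFKFB2, PFKFB3 and PFKFB4 make and degrade fructose 2,6-bisphosphate, the activator of phosphofructokinase, and TIGAR is a phosphatase that lowers it. None of the 4 was called in the response of E10 and E14 at any time, nor in P2 and U937T. At 48 h their changes in E10 and E14 ranged from -0.17 to 0.07. PFKFB4 and TIGAR moved with time in culture, as described further on.

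From aldolase to pyruvate, few genes were called. ALDOA and ALDOC (aldolases), TPI1, GAPDH, PGK1, PGAM1, ENO1, ENO2 (enolases) and PKM carry fructose bisphosphate down to pyruvate. Of these 9 genes, ENO1 was called lower in E10 and E14 at 48 h, none was called higher, and none was called in P2 and U937T or in the EVI1-specific response. The other 8 genes differed by -0.06 to 0.30 in E10 and E14 at 48 h, PKM having the largest difference (0.55 in E10 and 0.04 in E14, adjusted p = 0.10). The EVI1-specific response of GAPDH was 0.06 (95% confidence interval -0.18 to 0.30) and that of ALDOA was -0.02 (-0.27 to 0.24). The brightest probe set of GAPDH is the 3′ control probe set that also enters the 3′ excess. Over the 6 probe sets of GAPDH the EVI1-specific response ran from -0.18 to 0.06 and was negative in 5. All of these 9 genes except ALDOC and ENO2 had mean intensities of 12.6 to 13.9, close to the top of the scale at 14.49, a range in which arrays are known to compress differences. ENO2, the neuronal enolase, stood at 3.19, near the filter.

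Lactate dehydrogenase converts pyruvate to lactate and back. LDHA lay between 13.22 and 13.37 on all 20 arrays, with an EVI1-specific response of -0.08 (95% confidence interval -0.34 to 0.17). LDHB fell by 0.26 in E10 and E14 at 48 h (limma, adjusted p = 0.037), and its EVI1-specific response of -0.18 was not called (-0.44 to 0.08). That call was lost in fits without E10 (adjusted p = 0.55) and without E14 (0.54).

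The probe sets of ENO1 varied with RNA integrity as well as with tet. The change of its main probe set was -0.50 ± 0.12 in E10 and E14 at 48 h (limma, adjusted p = 0.006, and 0.15 without E10 and 0.25 without E14), and all 4 of its probe sets were lower, by -1.06 to -0.28. Its second probe set by intensity ran from 13.35 in E10 with tet at 6 h, where the 3′ excess was 0.19, down to 9.98 in E14 without tet at 24 h, where it was 1.40. In E14 at 12 h that probe set read 12.77 without tet, where the 3′ excess was 0.46, and 11.33 with tet, where it was 1.02. At 48 h it read 11.54 in E10 and 10.90 in E14 without tet, against 12.44 and 12.11 with tet, while the 3′ excess was 0.68 and 0.84 without tet, against 0.66 and 0.74 with tet. With the 3′ excess as a model term the change of the main probe set was -0.47 (adjusted p = 0.00051).

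**Figure D3:**
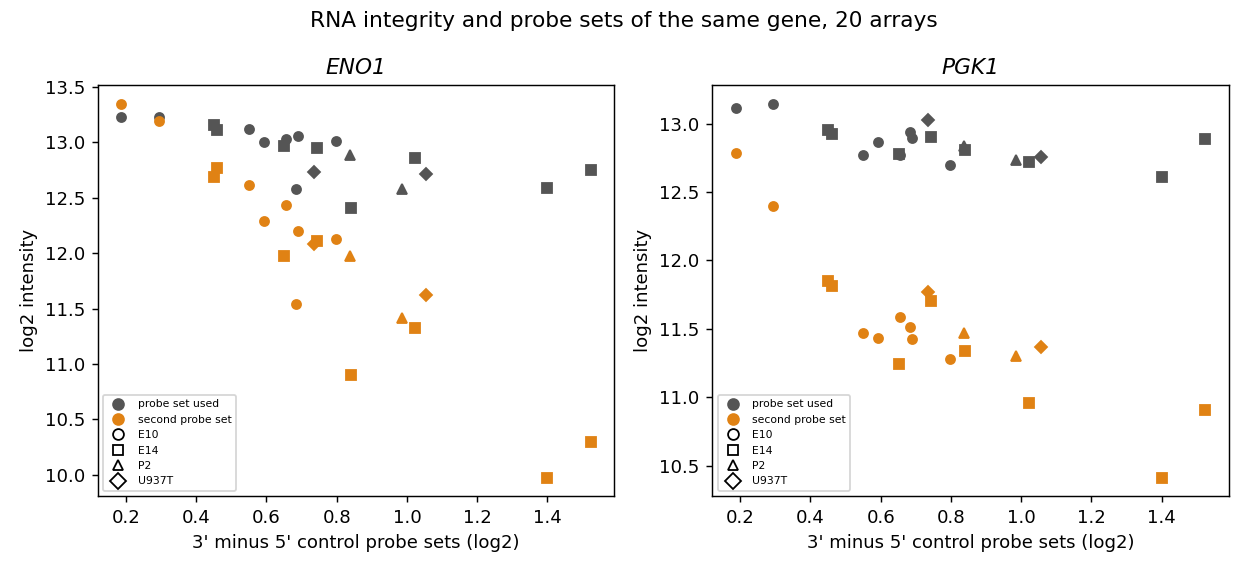
Log2 intensity of the probe set used (grey) and of the second probe set (orange) of ENO1 and PGK1 on each of the 20 arrays, against the 3′ minus 5′ difference of the control probe sets. The second probe sets span 9.98 to 13.35 for ENO1 and 10.41 to 12.79 for PGK1 and are lower where the difference is larger, and the probe sets used span 12.41 to 13.23 and 12.61 to 13.15.

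The pyruvate dehydrogenase kinases, which phosphorylate and so inactivate the entry enzyme of the citric acid cycle, changed in opposite directions. PDK1, a well known target of the hypoxia response, read 8.58 in E10 and 8.48 in E14 at 48 h without tet, against 9.24 and 9.58 with tet. The control lines P2 and U937T gave 8.98 and 9.03 without tet, against 9.31 and 9.56 with tet. The cultures without tet were lower in all 4 lines without overlap. The change was -0.88 ± 0.12 in E10 and E14 (limma, adjusted p = 4.2e-05, and 0.073 without E14) and -0.43 ± 0.12 in P2 and U937T (adjusted p = 0.032, and 0.11 without P2 and 0.28 without U937T). Its EVI1-specific response of -0.45 ± 0.17 was not called (95% confidence interval -0.81 to -0.10, adjusted p = 0.15). At 24 h PDK1 read 8.68 and 8.64 in E10 and E14 without tet, against 9.41 and 9.50 with tet (adjusted p = 0.0003). At 6 h the sign was the other way, with 9.05 and 8.93 without tet and 8.87 and 8.77 with tet, and was not called. At 12 h it read 9.20 and 9.02 without tet and 9.24 and 9.24 with tet.

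PDK3 rose by 0.80 ± 0.12 in E10 and E14 at 48 h (limma, adjusted p = 0.00017, and 0.052 without E14) and differed by 0.19 in P2 and U937T (adjusted p = 0.40). It read 11.09 in E10 and 11.08 in E14 without tet, against 10.34 and 10.24 with tet, and 10.52 and 10.27 in P2 and U937T without tet, against 10.14 and 10.26 with tet. Both EVI1 clones without tet lay above all other arrays at 48 h, and U937T was nearly equal in both conditions. Its EVI1-specific response of 0.60 ± 0.18 missed the threshold (95% confidence interval 0.23 to 0.98, adjusted p = 0.066). It passed with the intensity filter at 5 (adjusted p = 0.041), with the mean of all probe sets (0.47, adjusted p = 0.029) and with a variance trend (adjusted p = 0.028). All 5 probe sets of PDK3 were higher in E10 and E14, by 0.68 to 1.12. PDK2 and PDK4 were not called in any response, with changes of 0.15 and -0.15 in E10 and E14 at 48 h. PDK4 stood at a mean of 3.88, with 10.1% of genes below it, and its 3 probe sets gave changes of -0.15 to 0.23. A change at so low an intensity could be missed.

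In the pentose phosphate pathway, RPIA, which interconverts ribulose and ribose 5-phosphate, was the only one of 5 measured genes to be called in E10 and E14 at 48 h. It read 9.99 in E10 and 10.02 in E14 at 48 h without tet, against 10.97 and 11.06 with tet. For P2 and U937T the values were 10.47 and 10.63 without tet, against 10.96 and 10.98 with tet. All cultures without tet lay below all cultures with tet, and the EVI1 clones lay lowest. The change was -1.01 ± 0.10 in E10 and E14, 2.02-fold (limma, adjusted p = 3.7e-06), and -0.43 ± 0.10 in P2 and U937T (adjusted p = 0.018, and 0.22 without P2 and 0.077 without U937T). Its EVI1-specific response of -0.59 ± 0.15 (95% confidence interval -0.91 to -0.27, adjusted p = 0.032) was the least stable of the 4 called. It gave adjusted p = 0.50 without E10, 0.60 without E14, 0.064 without P2, 0.19 without U937T and 0.12 with the arrays at 48 h alone, at values of -0.66 to -0.52.

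RPIA was called lower from 24 h on. At 6 h it read 10.84 and 10.83 in E10 and E14 without tet, against 10.86 and 10.80 with tet. At 12 h it read 10.88 and 10.89 without tet, against 10.94 and 11.16 with tet. At 24 h it read 10.53 and 10.79 without tet, against 10.96 and 11.24 with tet (limma, adjusted p = 0.0094). The response at 48 h differed from that at 24 h by -0.58 ± 0.15 (adjusted p = 0.046, and 0.94 without E10 and 0.98 without E14). PGLS and PGD of the oxidative branch and TKT and TALDO1 of the non-oxidative branch had EVI1-specific responses of -0.10 to 0.16. For TALDO1 the interval was -0.26 to 0.26, while for PGD it was as wide as -0.59 to 0.79.

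**Figure D4:**
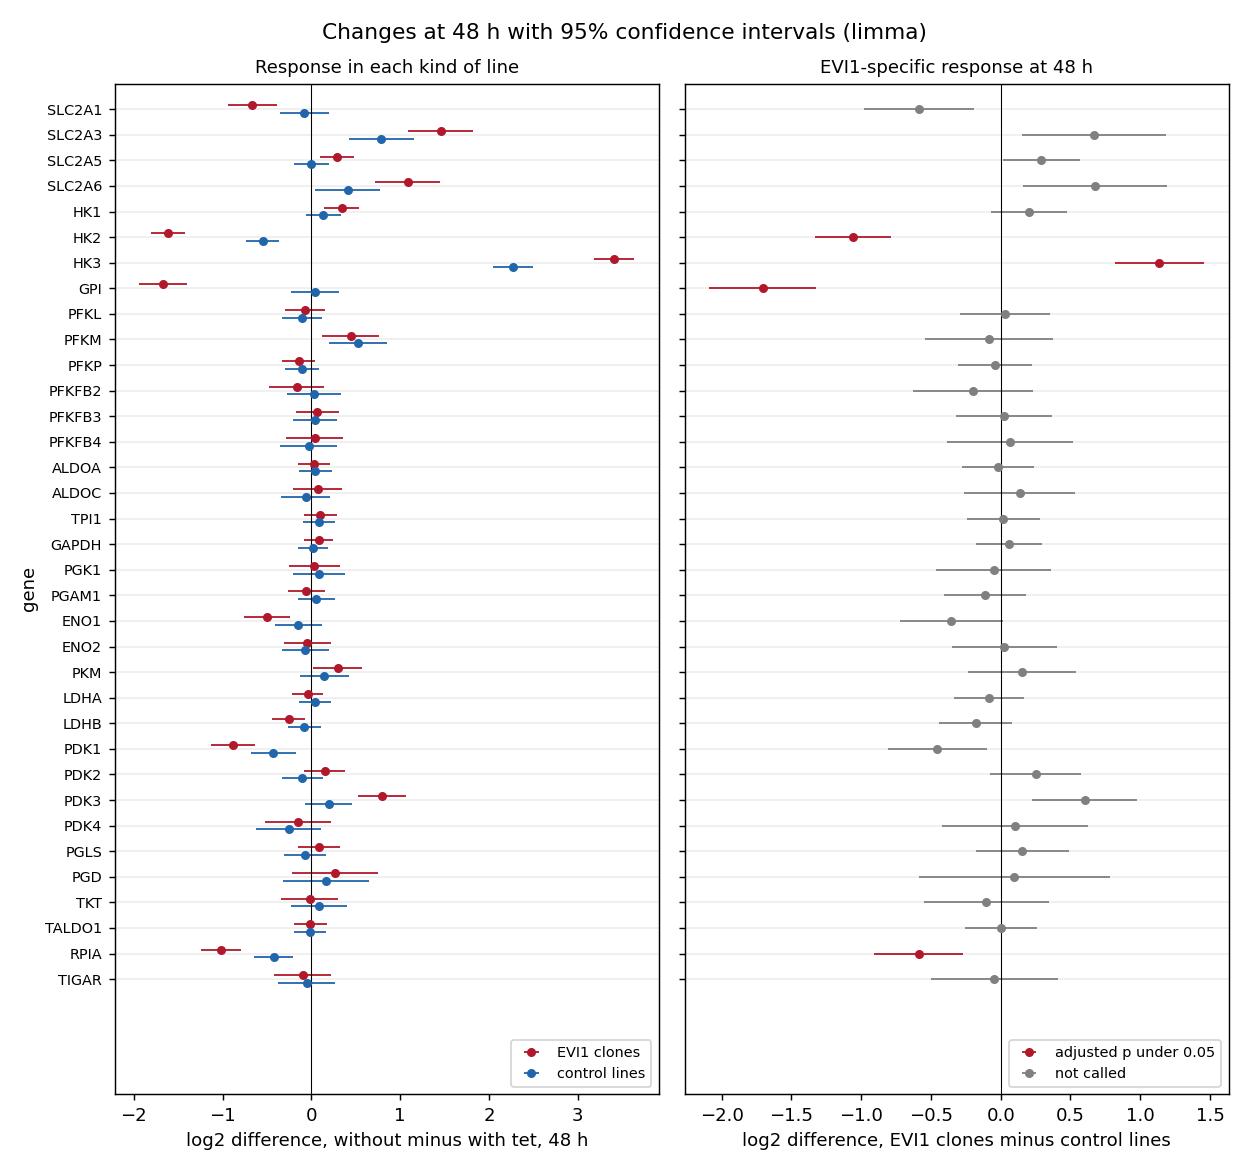
Left, change at 48 h without minus with tet in E10 and E14 (red) and in P2 and U937T (blue) for 35 genes, and right, the EVI1-specific response, that is their difference, all on the log2 scale with 95% confidence intervals from limma. The intervals of HK2 (-1.33 to -0.79), HK3 (0.82 to 1.46), GPI (-2.09 to -1.33) and RPIA (-0.91 to -0.27), drawn in red on the right, belong to the 4 called genes, and the rows from ALDOA to PGAM1 lie close to 0.

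A few of the genes differed with time in culture without any change in tet. With tet, 48 h against 6 h in E10 and E14, 3 of the 35 genes were higher (SLC2A5, PFKFB4 and PDK1) and 1 was lower (TIGAR), against 3.10% of all genes higher and 4.07% lower. TIGAR, whose product directs sugar towards the pentose phosphate pathway, read 6.91 in E10 and 7.14 in E14 with tet at 48 h, against 8.26 and 8.10 with tet at 6 h, a change of -1.15 (limma, adjusted p = 0.0008, and 0.12 without E10, where it was -0.96). Its values without tet ran alongside, at 7.00 and 6.86 at 48 h, against 8.09 and 7.76 at 6 h. PFKFB4, which favours fructose 2,6-bisphosphate synthesis, was higher by 0.69 (adjusted p = 0.015, and 0.35 without E10 and 0.19 without E14), and PDK1 by 0.59 (adjusted p = 0.0091, and 0.17 without E10 and 0.61 without E14). SLC2A5 was higher by 0.39 (adjusted p = 0.022), and its probe set with the largest spread gave -0.31 (adjusted p = 0.62). The 3′ excess also differed between these arrays, at 0.66 and 0.74 with tet at 48 h, against 0.19 and 0.45 with tet at 6 h. With it as a model term TIGAR differed by -0.97 (limma, adjusted p = 0.0029) and PFKFB4 by 0.46 (adjusted p = 0.022). Values of PDK1 and SLC2A5 with this term are not given here. Over all genes, 237 were called higher and 338 lower with this term, against 553 and 727 without it.

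Among 51 further genes of the same pathways, 44 were measured. In E10 and E14 at 48 h, 6 of them were higher and 12 lower (13.6% and 27.3%, against 16.0% and 14.7% of all genes). In P2 and U937T 1 was higher and 5 lower (2.27% and 11.4%, against 5.41% and 5.30% of all genes). In the EVI1-specific response 1 was higher and 1 lower (2.27% each, against 2.43% and 3.03% of all genes). PDP1, the phosphatase that reactivates pyruvate dehydrogenase and so opposes the PDK enzymes, was higher, with a change of 0.83 in E10 and E14 and 0.21 in P2 and U937T, and an EVI1-specific response of 0.62 ± 0.14 (limma, adjusted p = 0.016). PCK2, the mitochondrial phosphoenolpyruvate carboxykinase, was lower, with changes of -1.05 and -0.46 and an EVI1-specific response of -0.59 ± 0.16 (adjusted p = 0.042). Whether the calls of PDP1 and PCK2 hold with a line left out was not tested.

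Of 17 regulators of glucose use, 16 were measured. In E10 and E14 at 48 h, 5 were higher and 2 lower (31.2% and 12.5%, against 16.0% and 14.7% of all genes). In P2 and U937T 3 were higher and 2 lower (18.8% and 12.5%, against 5.41% and 5.30% of all genes). In the EVI1-specific response 1 was higher and 1 lower (6.25% each, against 2.43% and 3.03% of all genes). EPAS1, which encodes HIF-2α, a hypoxia-inducible factor, changed by 2.54 in E10 and E14 and by 1.37 in P2 and U937T, an EVI1-specific response of 1.17 ± 0.12 (limma, adjusted p = 7.8e-05). MYC, whose product activates many glycolytic genes, changed by -3.47 in E10 and E14 and by -0.91 in P2 and U937T, an EVI1-specific response of -2.56 ± 0.21 (adjusted p = 1.8e-05). At 24 h MYC differed by -2.71 and EPAS1 by 1.87 in E10 and E14. Whether the calls of EPAS1 and MYC hold with a line left out was not tested. The part of these regulators in the changes of the 35 genes was not tested either.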

How the data were processed

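Total RNA from U937T_EVI1-HA clones E10 and E14 and from control lines P2 and U937T was hybridized to 20 Affymetrix HG-U133 Plus 2.0 arrays. The authors deposited log2 intensities after Robust Multi-array Analysis (background correction, quantile normalization, median polish), with array medians of 5.25 to 5.35. The software version is not given in the sources used here. Quantile normalization removes shifts common to all genes, and the number of arrays limits the precision. No pair of arrays was identical.

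Of 54675 probe sets, the 41097 with 1 gene symbol were considered, and the intensity filter asked for a log2 mean of 3 or more in each EVI1 clone at 24 h and at 48 h and in each control line. Each gene was represented by its brightest probe set. All arrays were fitted in limma 3.58.1 (R 4.3.3) with 10 groups and the line as a block, since the labels give the same line without and with tet (8 residual and 5.74 prior degrees of freedom). As a check of the block, the difference between E10 and E14 was correlated between groups (median 0.11), and so was that between P2 and U937T (-0.21). The fit was tested on simulated data. The 37 genes and the further lists were chosen with earlier results of these data known. The values of all arrays are given for genes called in the EVI1-specific response and for the 3 called genes with the largest change in each direction in E10 and E14 and in P2 and U937T at 48 h, and PDK3, HK1, SLC2A1, TIGAR and other genes were described after their values were seen. Alternatives covered the filter, the probe set, control probe sets, centring, the variance model, the block, the arrays at 48 h alone, a 2-fold minimum and each line left out. A fit that leaves out E14 at 12 and 24 h and one with the 3′ excess as a model term were added after seeing the data. RefSeq windows came from GRCh38.p14.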

Additional observations from a re-analysis of the deposited data

Results flagged for a closer look

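In 4 of the 35 genes the response to tet withdrawal at 48 h differed between the EVI1 clones and the control lines by a test of the difference itself. In limma, the EVI1-specific response was -1.71 for GPI (adjusted p = 8.9e-05), -1.06 for HK2 (adjusted p = 0.00024), 1.14 for HK3 (adjusted p = 0.00049) and -0.59 for RPIA (adjusted p = 0.032). For HK2, HK3 and RPIA the control lines moved in the same direction as the clones, whereas for GPI they differed by 0.04 between conditions. In 3 genes the response of E10 and E14 at 48 h differed from that at 24 h, by 1.88 for HK3, -1.27 for GPI and -0.58 for RPIA (adjusted p = 2.4e-05, 0.0014 and 0.046). All groups held 2 lines, so that no search for single outlying samples was made.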

How the results depend on the processing

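The EVI1-specific response of GPI and the responses of HK2, HK3, GPI, RPIA, SLC2A3 and SLC2A6 in E10 and E14 at 48 h kept their direction and their call in all alternatives run. No alternative called any of the 35 genes at 6 or 12 h.

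Counts of called genes moved as follows when each line was left out in turn: 2 to 5 higher (against 5) and 1 to 5 lower (against 5) in E10 and E14 at 24 h, 4 to 7 higher and 3 to 7 lower (against 7 and 7) at 48 h, 1 to 2 higher and 0 to 1 lower (against 3 and 3) in P2 and U937T, 0 to 1 higher and 1 to 2 lower (against 1 and 3) in the EVI1-specific response, 0 to 1 higher and 0 to 2 lower (against 1 and 2) from 24 to 48 h, and 0 to 4 higher and 0 to 1 lower (against 3 and 1) with time in tet. Fits without E10 or E14 leave 1 clone, which is assumed to vary like the other lines, and 1 residual degree of freedom. From 24 h on, calls over all genes also became fewer in these fits. The same held for the control lines and the EVI1-specific response without P2 or without U937T.

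A 2-fold minimum left 1 higher and 1 lower at 24 h and 3 higher and 3 lower at 48 h. It left 1 higher and 0 lower in the control lines, 1 lower from 24 to 48 h and 0 higher with time in tet. Of all 17860 genes, the 2-fold minimum left 173 higher and 175 lower at 24 h and 575 and 519 at 48 h. In the control lines it left 125 and 8, from 24 to 48 h 101 and 55, and with time in tet 77 and 56. The arrays at 48 h alone gave 4 higher in E10 and E14 and 1 lower in P2 and U937T. Over all genes these arrays gave 2430 higher in E10 and E14 and 324 lower in P2 and U937T. Choosing the probe set of largest spread gave 3 lower at 24 h and 1 lower from 24 to 48 h. There, no filter, centred arrays and the fit without the replicate block also gave 1 lower, since RPIA passed the threshold narrowly (adjusted p = 0.052, 0.059 and 0.071). The EVI1-specific response had 2 higher with the filter at 5 or with a variance trend and 3 higher with the mean of all probe sets, which added SLC2A3 and PDK3. Without the E14 arrays at 12 and 24 h, 1 gene was higher and 1 lower at 24 h, 1 lower from 24 to 48 h and 2 lower with time in tet. SLC2A5 reversed with its probe set of largest spread, to -0.13 at 48 h and -0.31 with time in tet. Unless named, the cause was not tested. Leaving out the replicate block changed no other count of calls by more than 1.5 times.

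The limits lie in 2 lines per group, in 1 array per condition, and in the control lines having been read at 48 h only. The abundant glycolytic genes stand near the top of the scale, and whether this compressed their differences was not tested.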
